A study of Mus musculus with 6 samples.

Results

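Skeletal muscle contracts when an action potential, carried into the fibre along the transverse tubules (T-tubules), opens calcium release channels of the sarcoplasmic reticulum at junctions called triads. The transcripts of 10 genes that build this junction were followed here in gastrocnemius muscle with and without dysferlin. The genes are Cacna1s, Cacnb1 and Stac3 of the voltage sensor, Ryr1, Trdn, Jsrp1 and Asph of the release channel and its partners, and Jph1, Jph2 and Bin1, which shape or hold the junctional membranes. In GENCODE M21 (GRCm38) they lie on chromosomes 1 (Cacna1s, Jph1), 2 (Jph2), 4 (Asph), 7 (Ryr1), 10 (Stac3, Jsrp1, Trdn), 11 (Cacnb1) and 18 (Bin1). They were chosen by symbol, and all 10 were found among the 57010 gene IDs of the deposited count table and passed the filter on low counts.

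The series holds 6 libraries, 1 per animal, from untreated mice aged 3 months. Mutants were 3 mice homozygous for Dysfprmd (strain B6.A-Dysfprmd/GeneJ, also called BLAJ), of which replicates 1 and 2 were female and replicate 3 was male. Controls were 3 male mice given as wild type and C57BL/6. The mutation removes dysferlin, a membrane repair protein of the sarcolemma that is also known from the T-tubule, in all cells of the animal, and causes a muscular dystrophy that grows worse with age.

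In the triad the voltage sensor, a calcium channel in the T-tubule membrane, touches the release channel in the facing reticulum and opens it by direct contact. Junctophilins bridge both membranes, the BIN1 protein bends the T-tubule, and triadin, junctin and the JP-45 protein (from Jsrp1) tie the release channel or the voltage sensor to calsequestrin, the calcium store of the lumen. Loss of Ryr1, Cacna1s, Stac3, Jph1 or Bin1 function is known to disturb triads or contraction, and T-tubule defects are a known feature of dysferlin-deficient muscle.

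Library totals ran from 35042245 to 43733641 read pairs in genes, and levels are given as CPM (counts per 1000000, over the normalised library size). Dysf (ENSMUSG00000033788) measured 72.3, 99.8 and 145 CPM in controls 1, 2 and 3 against 15.8, 14.7 and 20.3 CPM in mutants 1, 2 and 3, or -2.64 ± 0.28 on the log2 scale (mutant minus control, fitted SE; edgeR adjusted p = 0.0249), so the libraries followed their Dysf labels. Ifi202b was present in all controls (1.02 to 7.69 CPM) and had 0 counts in the mutants, which allows up to 0.0856 CPM, and H2-Ea-ps measured 2.37 to 3.44 CPM in controls against at most 0.0264 CPM in mutants; C57BL/6 mice are known to express little or none of either. That goes against the strain label of all 3 controls, so genotype and strain cannot be told apart in any comparison here, and sex is uneven between the groups. Fast fibre markers defined the tissue, with Myh4 at 44458 to 75458 CPM. Of the 5 cardiac markers, Myl7 was at 0 and Nppa at most at 0.0680 CPM in all libraries, while Myh6 measured 60.5, 34.9 and 14.9 CPM in controls 1 to 3 against 2.83, 0.80 and 3.08 CPM in mutants 1 to 3 (unadjusted p = 0.00082, edgeR adjusted p = 0.224). The sum of the cardiac list, 16.8 to 67.6 CPM in controls and 5.21 to 10.6 CPM in mutants, did not overlap either, but Myh6 carried that difference. The other cardiac markers overlapped, with Tnnt2 at 1.68 to 9.06 CPM in controls and 4.33 to 7.59 CPM in mutants. Tnni3 lay at 0.153 to 0.250 CPM in controls and 0.0827 to 0.331 CPM in mutants. The part of the cardiac markers in the results below was not tested. Control 2 stood apart in the 9 markers of embryonic, regenerating or denervated fibres, whose summed level was 1056 CPM against 52.2 to 104 CPM in the other libraries. Sln alone gave 678 CPM of the sum in control 2. Myh8 was not raised there, at 8.47 CPM within 5.29 to 19.7 CPM over all libraries, while each other marker was highest in control 2. Control 1 had the highest mitochondrial share of counts, 9.75% against 4.28% to 6.96%.

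None of the 10 triad genes passed the test between mutants and controls. The edgeR quasi-likelihood test called 0 of the 10 at an adjusted p below 0.05 (smallest adjusted p = 0.834, for Bin1), against 0.199% of all 15589 genes tested, and at an unadjusted p below 0.05 it also gave 0 of 10, against 6.94% of all genes. DESeq2 called 0 of 10, against 1.08% of 18617 genes, and limma-voom called 0 of 10, against 21 of 15589 genes. The log2 fold changes (mutant minus control) ran from -0.34 for Asph to 0.18 for Stac3, 5 above 0 and 5 below, with a median of 0.01 against -0.0015 over all genes tested. In no gene did the mutant libraries all lie above or all below the controls, against 12.1% of all genes. None of the 10 passed an adjusted p of 0.05 in the authors' deposited table, where the smallest adjusted p was 0.98 (Bin1).

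A p above the threshold does not show equal levels, and the 95% confidence intervals give the size of difference that these 6 animals leave possible. The narrowest of the intervals were those of Stac3, from -0.16 to 0.52, and Jsrp1, from -0.29 to 0.41, on the log2 scale. The widest was that of Asph, from -1.13 to 0.45. For 9 of the 10 genes the interval lay within a 2-fold change in both directions, and for Asph it reached past a 2-fold lower level.

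**Figure D1:**
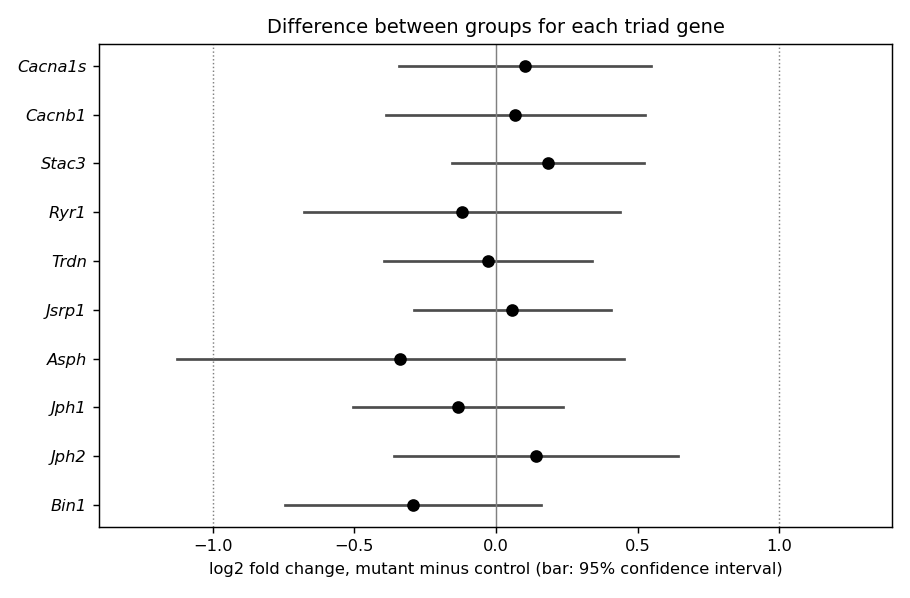
Log2 fold change (mutant minus control) of the 10 triad genes from edgeR, with points for the estimates and bars for the 95% confidence intervals (3 animals per group); dotted lines mark a 2-fold change. All 10 intervals include 0, and the interval of Asph, from -1.13 to 0.45, is the one that crosses a dotted line.

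**Figure D2:**
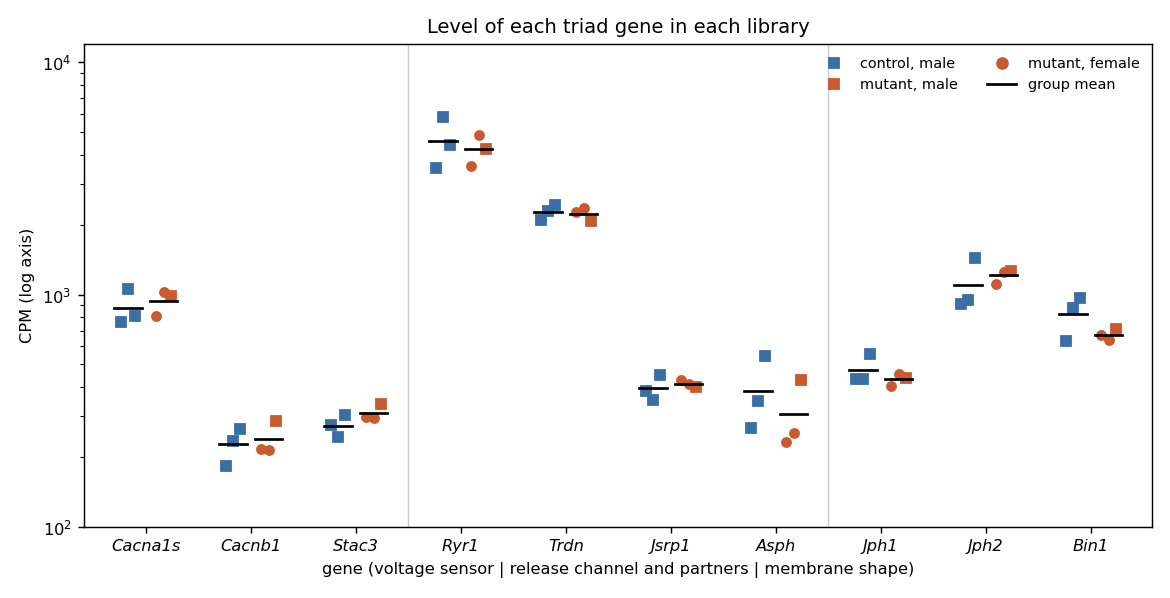
CPM (log axis) of each triad gene in each of the 6 libraries, with squares for males, circles for females, blue for controls and orange for mutants, and black bars for group means. The groups overlap in all 10 genes, and Ryr1 at 3518 to 5834 CPM lies highest on this scale, which is not corrected for transcript length.

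In the voltage sensor genes the 3 estimates all lay above 0 and none passed the test. Cacna1s (ENSMUSG00000026407), the pore and voltage-sensing subunit, measured 761, 1053 and 810 CPM in controls 1, 2 and 3 against 806, 1027 and 984 CPM in mutants 1, 2 and 3. The mutants lay inside the control range, and the log2 fold change was 0.10 (± 0.19 SE, 95% interval -0.34 to 0.55, edgeR adjusted p = 0.954). Cacnb1 (ENSMUSG00000020882), the beta subunit that carries the pore subunit to the T-tubule, measured 182, 234 and 265 CPM in controls 1 to 3 against 215, 213 and 286 CPM in mutants 1 to 3. Its highest library was the male mutant and its lowest was control 1, and the log2 fold change was 0.07 (± 0.19 SE, 95% interval -0.39 to 0.53). Stac3 (ENSMUSG00000040287), an adaptor that the voltage sensor needs to reach and drive the release channel, measured 273, 243 and 302 CPM in controls 1 to 3 against 297, 294 and 337 CPM in mutants 1 to 3. Mutants 1 and 2 lay between controls 1 and 3 and mutant 3 lay above them, with a log2 fold change of 0.18 ± 0.14 (SE; adjusted p = 0.867 by edgeR), the highest of the 10. Summed over the 3 genes, the level averaged 1374 ± 157 CPM in controls against 1487 ± 150 CPM in mutants (SD, n = 3 each), a difference smaller than either SD.

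None of the 4 genes of the release channel and its partners passed the test. Ryr1 and Trdn had the highest counts of the 10, on the CPM scale, which rises with transcript length. Ryr1 (ENSMUSG00000030592), the calcium release channel itself, measured 3518, 5834 and 4408 CPM in controls 1 to 3 against 3566, 4857 and 4231 CPM in mutants 1 to 3. Control 2, with the raised regeneration and denervation markers, was the highest and control 1 the lowest, so the mutants lay inside the control range. The log2 fold change was -0.12 (± 0.24 SE, 95% interval -0.68 to 0.44, edgeR adjusted p = 0.957), and without control 2 it was 0.09. Whether the state of control 2 plays a part in its Ryr1 level was not tested.

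In Ryr1 and Cacna1s the order of the libraries by CPM began with control 2 and mutant 2 and ended with mutant 1 and control 1, with control 3 and mutant 3 changing places in the middle. Shared orders were not particular to this pair, since Cacnb1 had the same order as Casq1, Col1a1 and Col3a1. The stretches just upstream of Cacna1s and Ryr1 are shown because their proteins are the channels that meet at the triad. The sequences are from RefSeq (GRCm38.p6, while the deposited counts were made on GRCm39), and are cut where the first annotated transcript begins. Capitals mark matches to an E-box, CANNTG, the site of the MyoD family, or to an MCAT site, CATTCC, the site of the TEAD family, on either strand.
Cacna1s, chr1:136052561-136052749, plus strand: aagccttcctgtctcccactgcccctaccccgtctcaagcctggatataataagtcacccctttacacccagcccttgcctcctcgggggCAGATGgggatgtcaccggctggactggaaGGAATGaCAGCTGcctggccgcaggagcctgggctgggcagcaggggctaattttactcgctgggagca
Ryr1, chr7:29125180-29125401, minus strand: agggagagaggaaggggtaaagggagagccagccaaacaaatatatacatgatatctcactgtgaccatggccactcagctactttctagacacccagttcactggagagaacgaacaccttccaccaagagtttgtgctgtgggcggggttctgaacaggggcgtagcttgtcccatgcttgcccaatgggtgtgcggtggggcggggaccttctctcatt

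In the 250 bases before the RefSeq start, Cacna1s held 2 E-boxes, which begin 160 and 123 bases before it, and 1 MCAT site at 130 bases, with no overlap between them. Ryr1 held none of these and no MEF2 site in its window. E-boxes occur in 66.2% of the 32851 promoter windows of that length in the table, MCAT sites in 12.6% and MEF2 sites in 0.508%. Of the 10 triad genes, 4 had a promoter entry, and both Jph2 windows held 1 E-box and the Cacnb1 windows 0 and 1, with no MCAT or MEF2 site. The Jph2 windows overlap and share the same E-box, which begins 9 or 29 bases before the start, depending on the window.

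Trdn (ENSMUSG00000019787), triadin, the luminal and membrane anchor between release channel and calsequestrin, varied least of the genes among the controls. It measured 2091, 2292 and 2431 CPM in controls 1 to 3 against 2264, 2351 and 2065 CPM in mutants 1 to 3, with the smallest coefficient of variation of the 10 in controls, 7.52%. The log2 fold change was -0.03 (± 0.16 SE, 95% interval -0.40 to 0.34). Jsrp1 (ENSMUSG00000020216), whose JP-45 protein binds both the voltage sensor and calsequestrin, measured 384, 353 and 452 CPM in controls 1 to 3 against 427, 412 and 399 CPM in mutants 1 to 3. The 3 mutants lay between controls 1 and 3, with a log2 fold change of 0.06 (SE 0.15).

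Asph (ENSMUSG00000028207) varied most. The gene gives rise to junctin, a partner of the release channel, to junctate and to the enzyme aspartyl beta-hydroxylase, which many cell types make, and gene-level counts do not separate these products. It measured 266, 347 and 545 CPM in controls 1 to 3 against 233, 254 and 429 CPM in mutants 1 to 3, so control 3 and mutant 3 were high and the groups overlapped. The log2 fold change was -0.34 ± 0.33 (SE; adjusted p = 0.901 by edgeR), against -0.67 without mutant 3, 0.16 in males alone and 0.15 with sex as a covariate. Since mutant 3 is the only male mutant and all controls are male, both of the latter estimates compare mutant 3 with the controls. Of the 6 fibroblast markers, 0 of which were called, Col1a1 and Col3a1 were high in the same libraries, with Col1a1 at 1424 and 2131 CPM in control 3 and mutant 3 against 69.1 to 226 CPM elsewhere. These collagens carried the sum of the list, 3333 and 4211 CPM against 651 to 1045 CPM. Pdgfra was also highest in control 3 and mutant 3, but by less, at 37.4 and 38.0 CPM against 24.8 to 33.4 CPM elsewhere. So was Dcn, at 458 and 458 CPM against 312 to 408 CPM. Lum, at 31.3 to 55.1 CPM, and Pi16, at 14.5 to 27.3 CPM over the 6 libraries, were not both highest in control 3 and mutant 3. The muscle genes Casq1 and Sypl2 were high in these libraries too, with Casq1 at 3926 and 4346 CPM against 1702 to 2559 CPM elsewhere. The part that fibroblasts or the fibre state play in the Asph values was not tested, and in whole muscle more cells of a type cannot be told apart from more RNA per cell.

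The genes of junctional membrane shape held the lowest unadjusted p of the 10. Jph1 (ENSMUSG00000042686), the junctophilin found mainly in skeletal muscle, measured 434, 431 and 555 CPM in controls 1 to 3 against 404, 453 and 439 CPM in mutants 1 to 3. Control 3 lay above the other 5 libraries, which spanned 404 to 453 CPM, and the log2 fold change was -0.13 (SE 0.16). Jph2 (ENSMUSG00000017817), the junctophilin shared with the heart, measured 908, 950 and 1432 CPM in controls 1 to 3 against 1108, 1255 and 1266 CPM in mutants 1 to 3. The mutants fell between controls 1 and 2 below and control 3 above, with a log2 fold change of 0.14 (SE 0.21), and of 0.37 without control 3 (edgeR adjusted p = 0.761).

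Bin1 (ENSMUSG00000024381), the membrane-curving protein of the T-tubule that other tissues also make in other splice forms, measured 629, 879 and 962 CPM in controls 1 to 3 against 668, 637 and 712 CPM in mutants 1 to 3. Controls 2 and 3 lay above all mutants and control 1 below them, and the log2 fold change was -0.29 (± 0.19 SE, 95% interval -0.74 to 0.16, unadjusted p = 0.17, edgeR adjusted p = 0.834). Without control 1 the log2 fold change was -0.46 ± 0.16 (SE; adjusted p = 0.451 by edgeR), still short of the threshold, and Bin1 was then the sole triad gene with an unadjusted p below 0.05. That was the Bin1 estimate furthest from 0 among the 18 alternatives tried, and the nearest was -0.17, without control 3. Control 1 was the lowest library in 5 of the 10 genes (Ryr1, Cacna1s, Cacnb1, Jph2 and Bin1), and control 3 was the highest in 6 (Jph1, Jph2, Bin1, Jsrp1, Trdn and Asph).

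**Figure D3:**
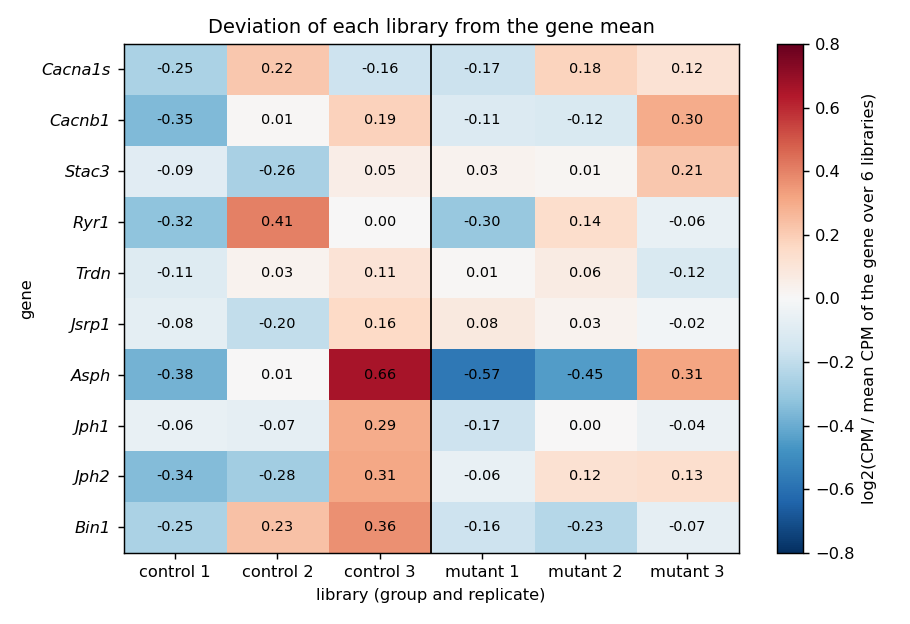
Log2 ratio of the CPM in each library to the gene's mean CPM over the 6 libraries, with triad genes in rows and libraries in columns; red is above and blue below the gene's mean. Ryr1 and Cacna1s are low in control 1 and high in control 2, Asph is high in control 3 and mutant 3, and the mutant columns vary less than the control columns in all 10 genes.

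The mutants lay closer together than the controls. The coefficient of variation (SD over mean) was lower in the mutants than in the controls in 10 of 10 genes, with medians of 7.55% and 18.1%. The size of the gap varied. In Jph2 the coefficient was 26.6% in controls and 7.30% in mutants, in Bin1 21.1% and 5.59%, and in Jsrp1 12.8% and 3.43%. It differed little in Cacnb1 (18.3% in controls and 17.3% in mutants), Asph (37.2% and 35.3%) and Trdn (7.52% and 6.58%). The spread was also lower in the mutants in 61.5% of all genes tested and in 66.1% of the 1312 genes with a mean of at least 100 CPM, so the direction was common across the data. The difference in spread was not tested, since it rests on 3 animals in each group.

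The balance between triad genes within a library does not depend on library scaling, and was looked at after the data had been seen. Of the 45 pairs among the 10 genes, 6 (13.3%) had ratios that did not overlap between the groups, against 10.5% of all pairs among the 1312 genes with a mean of at least 100 CPM, so the share lies near the background. The ratio of Jph1 to Jph2 counts was 0.479, 0.454 and 0.388 in controls 1, 2 and 3 and 0.364, 0.361 and 0.347 in mutants 1, 2 and 3. The ratio of Stac3 to Bin1 counts was 0.434, 0.276 and 0.313 in the controls and 0.445, 0.461 and 0.474 in the mutants. Both pairs were picked because their groups do not overlap, so the values are a description with no test.

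Levels between genes were compared as CPM per kb of exon, the union of all annotated exons (GENCODE M21). Averaged over the 6 libraries, Jsrp1 lay highest at 304 ± 25.9 CPM per kb (SD, n = 6), followed by Jph2 at 271 ± 47.5, Trdn at 241 ± 15.5, Ryr1 at 202 ± 39.7 and Bin1 at 182 ± 33.9 CPM per kb. Cacna1s stood at 138 ± 19.6, Stac3 at 114 ± 12.4, Jph1 at 90.6 ± 10.6, Cacnb1 at 51.4 ± 8.29 and Asph at 21.5 ± 7.57 CPM per kb. The release channel transcript thus lay above that of the voltage sensor pore, and Jph2 above Jph1, in each library. Jsrp1 lay above Jph2, Cacna1s above Stac3, and Stac3 above Jph1 above Cacnb1 above Asph in 6 of 6 libraries, while the steps from Jph2 to Trdn, Ryr1, Bin1 and Cacna1s held in 4 or 5 of 6. The ranges over libraries overlapped between neighbours from Jsrp1 down to Jph1, and those of Jph1, Cacnb1 and Asph did not. The order depended on the length used. With the longest coding transcript as length, a choice made after seeing the data, Trdn came first at 498 CPM per kb and Asph last at 51.6 CPM per kb. Jph2 went from rank 2 to rank 5 and Bin1 from rank 5 to rank 3. Stac3, at a mean of 163 CPM per kb, then lay above Cacna1s at 145 CPM per kb. The ranges of Asph (34.8 to 81.4) and Cacnb1 (53.7 to 84.1) then overlapped, as did those of Cacnb1 and Jph1 (83.9 to 115 CPM per kb). All these levels rest on the deposited counts, made without regard to strand. Counted on the matching strand, Cacna1s had 1.24 to 1.36 times its deposited count and Stac3 0.994 to 0.999 times. Levels per kb were not worked out on matched counts, so the order of Cacna1s and Stac3 stays uncertain.

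**Figure D4:**
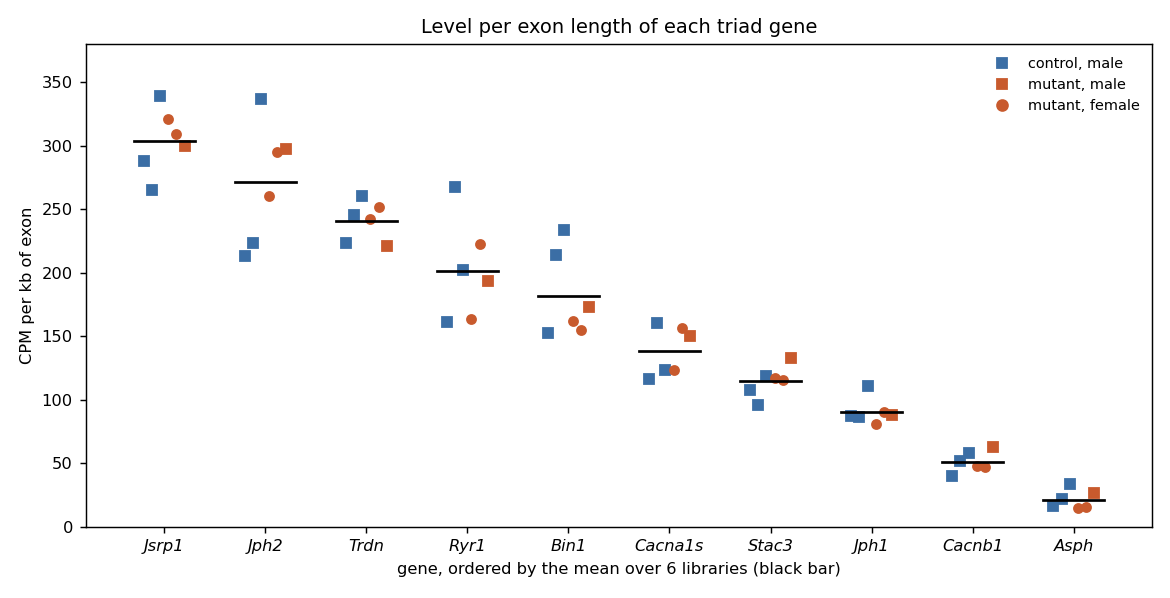
CPM per kb of exon for the triad genes in each of the 6 libraries, ordered by the mean (black bar), with blue for controls, orange for mutants, squares for males and circles for females. Levels run from 304 CPM per kb for Jsrp1 to 21.5 CPM per kb for Asph.

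The deposited matrix counts pairs without regard to strand, although the libraries keep it. Counted on the matching strand, Cacna1s had 1.24 to 1.36 times the deposited count, Bin1 1.14 to 1.16 times, Ryr1 1.08 to 1.10 times, Jph1 1.04 to 1.05 times and Asph 1.01 to 1.02 times, while Stac3, Jph2, Jsrp1, Trdn and Cacnb1 had 0.991 to 0.999 times. In GENCODE M21 exons on the opposite strand overlap those of Asph over 2368 bases, Cacna1s over 1309, Ryr1 over 914, Bin1 over 256, Cacnb1 over 80 and Jph1 over 34 bases, so the gain in count did not follow the length of overlap. Reads on the opposite strand itself made up 0.084% to 0.944% of the stranded counts of these 10 genes. The group difference of Cacna1s on matched counts was 0.14 (SE 0.17, edgeR adjusted p = 0.922), and 0 of the 10 genes were called.

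A wider set of 62 genes of the triad, the T-tubule and calcium handling gave the same count of calls. Of these, 60 passed the filter on low counts (Stac2 and Trpc4 did not). Among the 60, edgeR called 0 in either direction, against 0.199% of all genes tested. At an unadjusted p below 0.05 edgeR gave 5 of 60, against 6.94% of all genes. DESeq2, which gave no result for Sln, called 0, against 1.08% of 18617 genes, and limma-voom called 0, against 21 of 15589 genes. Estimates lay above 0 in 30 genes and below 0 in 30, with a median of -0.0082. The groups did not overlap in 7 of the 60, 3 with mutants higher and 4 lower, against 5.97% and 6.09% of all genes.

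Among partners of the voltage sensor (8 tested, median 0.06), Cacng6, a gamma subunit gene, measured 65.5, 94.3 and 134 CPM in controls 1 to 3 against 157, 169 and 147 CPM in mutants 1 to 3. All mutants lay above all controls, with a log2 fold change of 0.69 (± 0.25 SE, unadjusted p = 0.0279, edgeR adjusted p = 0.656). Cacng1, the gamma subunit of the skeletal muscle channel, measured 200, 423 and 318 CPM in controls 1 to 3 against 238, 279 and 244 CPM in mutants 1 to 3, with control 2 highest as for Ryr1 and Cacna1s. Cacna2d1, the alpha-2/delta subunit, averaged 652 ± 113 CPM in controls against 562 ± 75.0 CPM in mutants (SD, n = 3 each). Cacnb3, a beta subunit of other tissues, lay at 1.90 to 4.76 CPM over all libraries.

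Among partners of the release channel and the calcium store (17 tested, median -0.11), the groups overlapped in all genes. Tmem38b, a cation channel of the reticulum that balances charge during release, measured 87.6, 110 and 125 CPM in controls 1 to 3 against 83.8, 88.2 and 66.0 CPM in mutants 1 to 3 (log2 fold change -0.44 ± 0.18 SE, edgeR adjusted p = 0.703). Homer1, a scaffold that binds release channels, measured 208, 116 and 195 CPM in controls 1 to 3 against 99.9, 126 and 136 CPM in mutants 1 to 3. Ryr3, a second release channel known mainly from young muscle, averaged 2.98 ± 1.33 CPM in controls against 1.52 ± 0.716 CPM in mutants (SD, n = 3 each), with overlap. Casq2, the calsequestrin of slow fibres, measured 66.3, 65.1 and 32.6 CPM in controls 1 to 3 against 97.8, 37.4 and 151 CPM in mutants 1 to 3. The libraries low in Casq2, control 3 and mutant 2, were also the lowest for the 8 slow fibre markers, among which it is counted, at 649 and 1213 CPM in sum against 1960 to 4501 CPM elsewhere.

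Among membrane-shaping partners (13 tested, median -0.04), Pacsin3, a membrane-bending protein of the BAR family as Bin1 is, measured 421, 304 and 383 CPM in controls 1 to 3 against 273, 242 and 283 CPM in mutants 1 to 3. All mutants lay below all controls, with a log2 fold change of -0.48 (± 0.17 SE, unadjusted p = 0.0232, edgeR adjusted p = 0.655). Rtn2, a reticulon of the reticulum, measured 575, 557 and 706 CPM in controls 1 to 3 against 717, 713 and 714 CPM in mutants 1 to 3, the latter with an SD of 1.73 CPM. Cavin4, a caveolar coat protein of muscle, stood at 222 ± 50.1 and 175 ± 33.4 CPM, and Mtmr14, a phosphoinositide phosphatase, at 22.0 ± 3.24 and 26.6 ± 3.01 CPM in controls and mutants (SD, n = 3 each). Jph3, the junctophilin of nerve cells, did not overlap either, but at 0.264 to 0.400 CPM, and was named after its values were seen.

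Genes of membrane excitability (10 tested, median 0.15) set and restore the potential that the voltage sensor reads. Estimates lay above 0 in 8 of them and below 0 in 2, and none passed the test. Clcn1, the chloride channel of muscle, measured 171, 152 and 186 CPM in controls 1 to 3 against 174, 220 and 169 CPM in mutants 1 to 3, with overlap (edgeR adjusted p = 0.914).

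Store-operated entry genes (6 tested, median -0.06) had no gene with an unadjusted p below 0.05. Stim2, a calcium sensor of the reticulum, averaged 60.7 ± 14.0 CPM in controls against 46.2 ± 8.48 CPM in mutants (SD, n = 3 each). The entry channel gene Orai1 spanned 28.5 to 37.9 CPM over the 6 libraries. Orai2 lay at 0.882 to 3.29 CPM and Orai3 at 9.38 to 12.7 CPM over all libraries.

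Genes of calcium uptake (6 tested, median -0.0095) held the partner with the smallest p. Mrln, whose micropeptide myoregulin inhibits the calcium pump, measured 57.6, 30.1 and 57.9 CPM in controls 1 to 3 against 22.6, 27.6 and 29.1 CPM in mutants 1 to 3. All mutants lay below all controls, control 2 by the least, with a log2 fold change of -0.87 (± 0.26 SE, unadjusted p = 0.0122, edgeR adjusted p = 0.559), and of -1.13 (SE 0.15, edgeR adjusted p = 0.0588) without control 2. Among the 18 alternatives tried, that was the Mrln estimate furthest from 0 and its smallest adjusted p. The nearest to 0 was -0.73, without control 3. Sln, another inhibitor of the pump, was at 678 CPM in control 2 and at 1.07 to 14.6 CPM in the other libraries, and its estimate of -4.73 turned to 0.94 without that library. Atp2a1, the fast fibre pump itself, averaged 21502 ± 1622 CPM in controls against 22979 ± 3065 CPM in mutants (SD, n = 3 each). Pln, the pump inhibitor of heart and slow fibres, spanned 0.407 to 1.22 CPM.

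**Figure D5:**
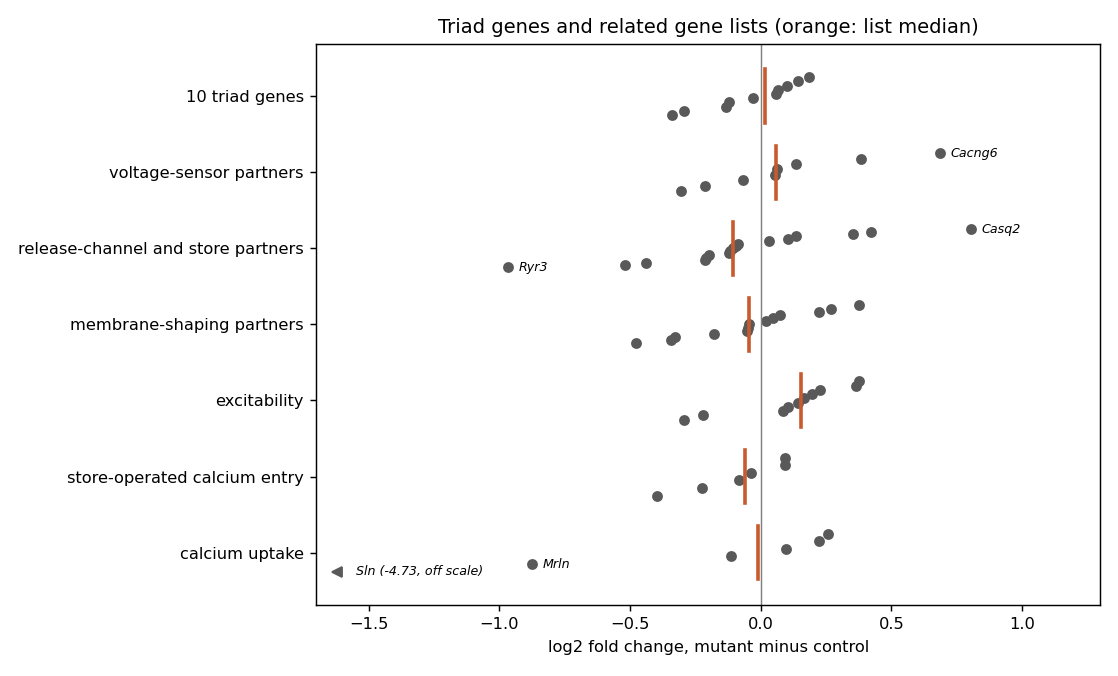
Log2 fold change (mutant minus control, edgeR) of the tested genes in the set of 10 triad genes and in 6 lists of related genes, 1 point per gene, with an orange bar at each list median; genes beyond 0.6 in size are labelled, and a triangle marks Sln at -4.73, off the scale. No gene shown passed the threshold, and the list medians lie between -0.11 and 0.15.

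Bin1, the triad gene with the smallest p, was also compared with 7616 genes of at least 10 CPM for likeness of pattern over the 6 libraries, by the correlation of log2 CPM. The closest were Siah2 (0.99), Mylf-ps (0.99) and Pdlim3 (0.99), given as a description since the closest of so many genes over 6 points will be close. Pdlim3, a Z-disc protein, measured 431, 1127 and 1240 CPM in controls 1 to 3 against 471, 509 and 579 CPM in mutants 1 to 3, with control 1 below all mutants and controls 2 and 3 above them, as in Bin1.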

How the data were processed

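Gene counts from 6 muscle libraries were analysed. The deposited values are unnormalised counts of read pairs by gene, in 1 matrix and in a file for each library with unstranded and per-strand columns; the matrix equals the unstranded column in all 6 libraries. The authors' deposited table gives a mean normalised signal, a log2 fold change and its SE, a test score and p-values for each gene, named as DESeq2 does per the file headers. The submitters' processing notes name STAR 2.7.11b, DESeq2 1.50.2 and GRCm39; no annotation is named in the sources used here. Per the labels' protocols, libraries were poly(A)-selected and directional, made from 800 ng RNA and read as 61 bp pairs. Entries that name no gene held 18.5% to 22.3% of pairs and were left out, multimapping pairs among them, so near-identical copies (Mylf-ps) are uncertain.

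The test was edgeR 4.0.16 (R 4.3.3): TMM, filterByExpr (minimum count 10), robust quasi-likelihood F-test without covariate, Benjamini-Hochberg adjustment over 15589 genes, called below 0.05. The fitted SE of edgeR is the size of the log2 fold change divided by the square root of the F statistic. Intervals are 95% from this SE and the degrees of freedom, and n = 3 animals per group. Counts of the 10 genes were at least 7303 per library, and 3 counts correspond to at most 0.0856 CPM. Symbols matched 52029 of 57010 IDs (GENCODE M21). Alternatives used limma 3.58.1, DESeq2 1.42.0, other scalings, filters, strand-matched counts, sex, the replicate block, males only, no X or Y genes, and each library left out. The procedure was also run on simulated counts with known changes. These changes were larger than any triad estimate, so the run does not measure power for differences of that size. Plots used matplotlib 3.10.9.

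The genes, lists and tests were chosen with earlier results of these data known. Named partners were those called, or else up to 4 per list with the smallest p. Some genes that this rule names are not reported here. The 3 genes most like the triad gene of smallest p were taken among those of at least 10 CPM.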

Additional observations from a re-analysis of the deposited data

How the results depend on the processing

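None of the 10 triad genes or 60 partner genes was called in the 18 alternatives tried. Not every partner had a result in each: Sln and Pln, for example, had a result in 17. The median log2 fold change of the triad genes ran from -0.08 without control replicate 1 to 0.08 in males only. Cacna1s, Stac3, Jph1, Jph2 and Bin1 kept their sign in all 18, and Ryr1, Cacnb1, Jsrp1, Trdn and Asph did not. The count over all genes, 31, moved to 201 with DESeq2, 79 with no filter, 0 with sex as a covariate (882 at an unadjusted p below 0.05) and 0 in males only (594), where the lone mutant is assumed to vary like the controls. Leaving out 1 library gave 6 (without mutant replicate 2) to 49 (without control replicate 2) calls, and 7 without mutant replicate 1. With sex as a covariate the estimates compare mutant replicate 3 with the controls, as in males only. With the replicate block 11 genes were called. The numbers share no stated litter or day. The same-numbered deviations correlated at 0.23, -0.06 and 0.22, against at most 0.16 between different numbers. Not every library correlated best with its own number. With 3 animals per group these correlations cannot settle whether the numbers pair the animals, and the main test used no pairing. Dysf lost its call with sex (adjusted p = 0.546), in males only and without mutant replicates 1, 2 or 3 (adjusted p = 0.228, 0.178 and 0.0637).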
